A study of Mus musculus with 2 samples.

Results

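The genes described are 37 chaperones, cochaperones and chaperone regulators of the cytosol and mitochondria, chosen by symbol from a written list. All 37 were among the 31053 genes of the files. They fall into 8 groups: HSP90 (2 genes), the cytosolic HSP70 and HSP110 proteins (4), the DNAJ proteins (5), the CCT subunits (7), the prefoldin subunits (4), the mitochondrial chaperones (4), the cochaperones of HSP90 and HSP70 (7), and a mixed group of small heat shock proteins and regulators (4). Single nuclei of the entorhinal cortex were captured in 2 libraries from male APP/PS1 mice killed at 18 months of age, with 5 mice pooled in each. Mice of 1 library had received OLE (N-oleoyl-leucine, a fatty acid joined to an amino acid, labelled C18:1-Leu) at 25 mg/kg/day in alkaline drinking water since 15 months of age, and mice of the other had received the vehicle, DMSO. Both groups carried the APP and PS1 transgenes, which drive amyloid deposition in this line and which are expressed from the mouse prion protein promoter, and no wild-type library was analysed here. Gene positions are those of the mouse build mm10 (GRCm38). The comparison asks how the RNA of these genes differed between the cortex of mice given OLE and that of mice given vehicle.

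Neither condition was replicated. No test could therefore be made, and every interval is an exact 95% interval for counting error alone, without the spread between mice or library preparations. UMIs (unique molecular identifiers, each marking 1 captured RNA molecule) were summed over the nuclei of a cell type, and a level, in counts per 1000000 (CPM), is a gene's UMIs divided by all UMIs of that cell type in that library. A ratio is the log2 of the OLE level over the vehicle level, and "higher" or "lower" counts use genes that reached 200 UMIs in the 2 libraries together and a difference of at least 1.2-fold. Fewer molecules per nucleus and a smaller share of the RNA cannot be told apart on this scale.

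Chaperones bind proteins that are not yet, or no longer, folded. In the cytosol, DNAJ proteins pass such clients to HSP70, which cycles with ATP while HSP110 proteins exchange its nucleotide, and adaptor proteins hand some clients on to HSP90. CCT, a double ring that encloses its clients, folds actin and tubulin delivered by prefoldin, and HSP60 with HSP10 forms a similar chamber in the mitochondrial matrix. Many of these genes are induced by the heat shock factor HSF1 when misfolded protein accumulates, and aggregates of misfolded protein are a hallmark of Alzheimer's disease, which APP/PS1 mice model in part.

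Depth was 70845739 UMIs over 6745 nuclei for vehicle and 69485537 over 6173 for OLE, and 14 barcodes occurred in both libraries. After removal of likely doublets, marker genes named 1987 and 1937 nuclei as glutamatergic-like (vehicle and OLE), 325 and 354 as GABAergic-like, 586 and 528 as oligodendrocyte-like, 339 and 271 as microglia-like, 121 and 136 as astrocyte-like, 101 and 84 as OPC-like (oligodendrocyte precursors) and 88 and 85 as vascular leptomeningeal-like. A large cluster of 2460 and 2009 nuclei, called cluster 0, carried markers of several classes and stayed unnamed, and its median depth was 2364 UMIs in vehicle and 4740 in OLE. Cluster 3 (382 and 429 nuclei), led by ferritin, ribosomal and mitochondrially encoded RNA, also stayed unnamed. In the glutamatergic-like nuclei the median depth was 21064 UMIs in vehicle and 19227 in OLE.

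In glutamatergic-like nuclei, 35 of the 37 genes reached 200 UMIs, and 13 of these were at least 1.2-fold higher in OLE and 0 lower. Over all 12578 genes tested in these nuclei, 17.1% were higher and 1.61% lower by the same rule. The median ratio of the 35 genes was 0.21, with a range from -0.03 to 0.83, and that of all genes tested was 0.06. A list of 25 housekeeping RNAs translated in the cytosol (glycolytic enzymes, actin, tubulin, translation factors) differed more, in the same direction, with 18 of 24 tested genes higher and a median of 0.50. In contrast, mitochondrially encoded RNA had a summed ratio of -0.06 and the nuclear-retained RNAs one of 0.14. The part of this difference in the chaperone ratios was not tested.

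**Figure D1:**
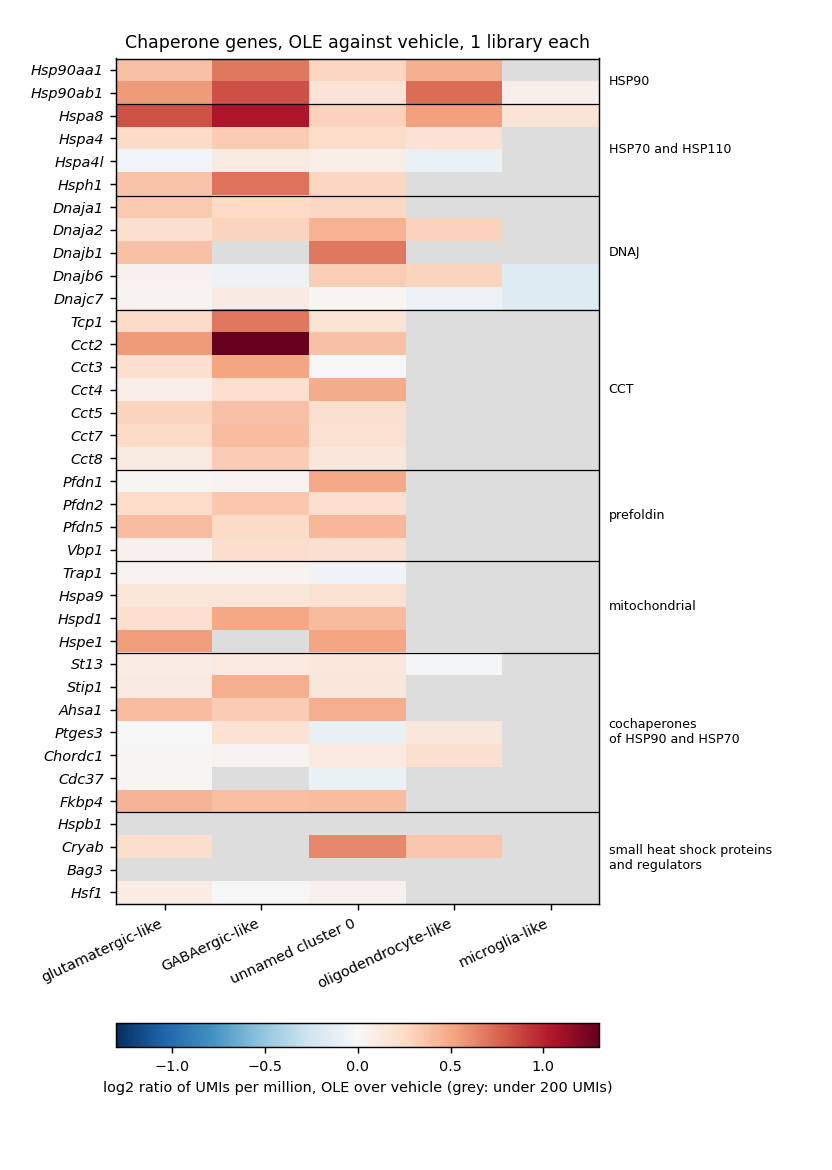
Each row is 1 of the 37 chaperone genes, arranged by group, and each column a cell type or the unnamed cluster 0. Colour gives the log2 ratio of OLE over vehicle, 1 library each, and grey marks genes under 200 UMIs over both libraries. Red prevails in the neuronal columns and in cluster 0, with Hspa8 and Cct2 darkest in GABAergic-like nuclei, and the 4 microglia-like values lie between -0.17 and 0.18.

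HSP90, which holds late folding intermediates of kinases and receptors, was the group with the largest summed ratio in glutamatergic-like nuclei. Hsp90ab1, the constitutive cytosolic isoform (chr17:45567775-45573271, - strand), stood at 61.0 CPM in vehicle and 89.7 in OLE, a ratio of 0.56 (0.49 to 0.63). For Hsp90aa1, the stress-responsive isoform (chr12:110690605-110702728, - strand), the levels were 33.3 and 43.4, a ratio of 0.38 (0.28 to 0.48). Counting intervals of the vehicle and OLE levels did not overlap for either gene. Summed over both genes, the ratio was 0.50 (0.44 to 0.55), and its interval lay above that of each other group.

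Hspa8, the constitutive HSP70 that also uncoats clathrin from vesicles (chr9:40800984-40810087, + strand), had the largest ratio of all 35 genes. Its 2515 UMIs in vehicle and 4064 in OLE correspond to 54.1 and 95.9 CPM, a ratio of 0.83 (0.75 to 0.90). The HSP110 genes, whose products exchange nucleotide on HSP70, did not move together. Hsph1 went from 27.6 to 35.7 CPM (0.37, 0.26 to 0.48) and Hspa4 from 68.3 to 81.0 (0.25, 0.18 to 0.32). By contrast, Hspa4l had 86.6 in vehicle and 84.6 in OLE (-0.03, -0.10 to 0.03), the only ratio under 0 among the 35, though it turned to 0.04 when unnamed clusters with raised glutamatergic markers were counted in. Because Hspa8 made up 22.9% of the UMIs of this group in vehicle and 32.3% in OLE, the summed ratio of 0.33 (0.29 to 0.37) dropped to 0.14 (0.10 to 0.18) without it.

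Among the DNAJ genes, which choose clients for HSP70, the ratios ranged from 0.03 to 0.38. Dnaja1, a general HSP70 partner, stood at 24.1 CPM in vehicle and 30.6 in OLE (0.34, 0.23 to 0.46), and its relative Dnaja2 at 55.9 and 64.6 (0.21, 0.13 to 0.29). Dnajb1, the DNAJ gene most strongly induced by heat, was scarce, with 132 and 157 UMIs (0.38, 0.04 to 0.73). Dnajb6, which suppresses aggregation, had 60.5 and 62.9 CPM (0.06, -0.02 to 0.13), and Dnajc7, which binds HSP70 and HSP90 at once, 106 and 109 CPM (0.03, -0.02 to 0.09). The group as a whole had a summed ratio of 0.12 (0.08 to 0.15). Only Dnaja1 and Dnajb1 were past 1.2-fold.

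The cochaperones split in the same way. Fkbp4, the immunophilin of steroid receptor complexes, had 11.3 CPM in vehicle and 15.3 in OLE (0.44, 0.28 to 0.61). Ahsa1, which speeds the ATPase of HSP90, had 14.1 and 18.6 (0.40, 0.25 to 0.55). The other members of the group were within 1.2-fold. Stip1, the adaptor between HSP70 and HSP90, had a ratio of 0.12 (0.01 to 0.23), and St13, an HSP70-binding protein, one of 0.10 (0.02 to 0.18). For Ptges3 (p23, which closes the HSP90 cycle), Chordc1 and Cdc37 (which brings kinases to HSP90) the ratios were 0.01, 0.02 and 0.02, each with an interval on both sides of 0.

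All 7 CCT genes had ratios above 0, and 3 of them were past 1.2-fold. Cct2 (chr10:117051001-117063814, - strand) led with 11.1 CPM in vehicle and 16.2 in OLE (0.55, 0.38 to 0.72), followed by Cct5 with 11.5 and 14.0 (0.29, 0.11 to 0.46) and Cct7 with 17.2 and 20.6 (0.26, 0.12 to 0.40). Tcp1 and Cct3 had ratios of 0.25 and 0.21, and Cct8 and Cct4 ones of 0.12 and 0.09 with intervals that include 0. The subunits occur in equal numbers in the ring, but the RNA ratios of Cct2 and Cct4, the highest and lowest of the 7, had intervals that did not overlap. In the unnamed cluster 0 the point values had the reverse order, with Cct4 above Cct2, and their intervals were not compared there. Summed, CCT had a ratio of 0.24 (0.18 to 0.29), and 0.20 without Cct2.

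The 4 prefoldin genes of the list had ratios from 0.02 to 0.40. Pfdn5 had 13.7 CPM in vehicle and 18.1 in OLE (0.40, 0.25 to 0.55) and Pfdn2 13.6 and 16.1 (0.24, 0.08 to 0.40). Pfdn1 had 37.5 and 37.9 (0.02, -0.08 to 0.11) and Vbp1 19.2 and 20.0 (0.05, -0.08 to 0.19). Only Pfdn5 was past 1.2-fold. Its interval lay above those of Pfdn1 and Vbp1, while that of Pfdn2 overlapped both. Pfdn4 and Pfdn6, prefoldin genes outside the list and named after their values had been seen, had 0.24 (0.04 to 0.44) and 0.18 (-0.05 to 0.41). In annotation Pfdn5 overlaps Myg1 on the same strand, so that reads of both genes could be shared.

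The mitochondrial chaperones, whose RNA is transcribed in the nucleus, had a summed ratio of 0.17 (0.11 to 0.24). Hspe1, the HSP10 lid of the HSP60 chamber, had 5.83 CPM in vehicle and 8.52 in OLE (0.55, 0.32 to 0.78). Hspd1, HSP60 itself, had 15.3 and 17.8 (0.21, 0.07 to 0.36). Hspa9, the mitochondrial HSP70 that pulls in imported proteins, had 35.8 and 39.9 (0.16, 0.06 to 0.26), and Trap1, the mitochondrial HSP90, 21.2 and 21.8 (0.04, -0.09 to 0.18). Of these 4 genes Hspe1 alone was past 1.2-fold. RefSeq lists pseudogene copies of Hspd1, Hspe1 and Hspa9, and how reads shared with them were counted was not tested.

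Small heat shock proteins were nearly absent from neurons. Hspb1 had 4 UMIs in vehicle and 7 in OLE and the cochaperone Bag3, which links HSP70 to autophagy, 25 and 15, so neither reached 200 UMIs. Cryab had 113 and 121 UMIs, a ratio of 0.23 (-0.15 to 0.62). Hsf1, the transcription factor that induces many of the other genes, had 26.6 CPM in vehicle and 28.4 in OLE (0.10, -0.02 to 0.21). The interval of the group sum, -0.01 to 0.21, includes 0.

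**Figure D2:**
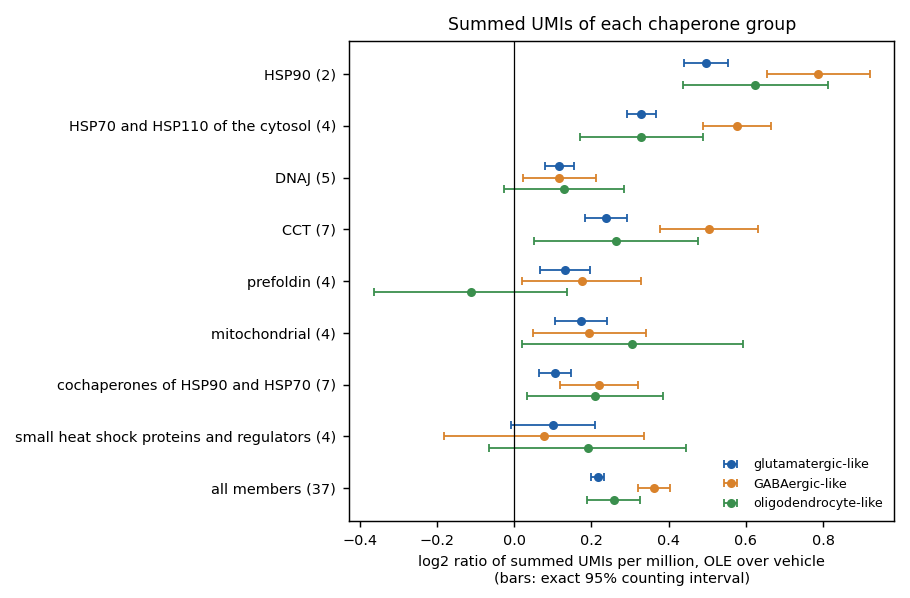
The x axis gives the log2 ratio, OLE over vehicle, of the summed UMIs of each chaperone group, with the number of genes in brackets, in 3 cell types, 1 library per condition; bars are exact 95% counting intervals. HSP90 is rightmost in each cell type, at 0.50, 0.79 and 0.62, and DNAJ lies at 0.12, 0.12 and 0.13.

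GABAergic-like nuclei gave larger ratios for several of the same genes. Of the 37 genes 31 reached 200 UMIs, with 17 at least 1.2-fold higher in OLE and 0 lower, against 18.6% and 2.95% of all 7489 genes tested. Their median ratio was 0.33, beside 0.06 for all genes. The cytosolic housekeeping list also stood higher, with 17 of 20 tested genes past 1.2-fold and a median of 0.60.

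Cct2 had the largest ratio in GABAergic-like nuclei. It was counted 65 times in vehicle and 149 times in OLE, or 9.24 and 22.8 CPM (1.303, 0.87 to 1.75). The same subunit had 1.07 and 1.74 in the 2 GABAergic-like clusters taken separately. Hspa8 went from 82.8 to 172 CPM (1.05, 0.90 to 1.197), Hsp90ab1 from 68.4 to 122 (0.84, 0.68 to 1.01) and Hsp90aa1 from 37.9 to 60.9 (0.68, 0.45 to 0.91). With each nucleus weighted equally, the ratio of Hsp90aa1 was 0.27, and the part of the depth of nuclei in this drop was not tested. Hsph1 had 17.8 and 28.9 CPM (0.70, 0.37 to 1.04) and Tcp1 15.9 and 25.5 (0.68, 0.33 to 1.04). The gap of Tcp1 dropped to 0.31 under equal weights.

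For the rest of the CCT ring, 4 further subunits were past 1.2-fold: Cct3 at 0.51, Cct7 at 0.41, Cct5 at 0.38 and Cct8 at 0.33, while Cct4 stood at 0.22. The CCT group as a whole had 128 CPM in vehicle and 182 in OLE, a summed ratio of 0.50 (0.38 to 0.63), and 0.42 (0.29 to 0.55) without Cct2. HSP90 had 0.79 (0.65 to 0.92) and cytosolic HSP70 with HSP110 0.58 (0.49 to 0.67), which became 0.28 (0.16 to 0.39) without Hspa8. DNAJ had 0.12 (0.02 to 0.21), prefoldin 0.17 (0.02 to 0.33) and the mitochondrial genes 0.19 (0.05 to 0.34). The order HSP90, then HSP70, then CCT, with the others behind, was the same in both neuron types. This order did not hold in nuclei thinned to 1000 UMIs, where GABAergic-like CCT had 0.61, HSP70 with HSP110 0.57 and HSP90 0.45, and where glutamatergic-like HSP90 and HSP70 with HSP110 had 0.30 each. Thinning also gave GABAergic-like prefoldin and DNAJ ratios of -0.16 and -0.052.

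Within the remaining GABAergic values, Hspd1 (0.50, 0.13 to 0.88), Stip1 (0.47, 0.19 to 0.76), Fkbp4 (0.39, 0.04 to 0.73), Ahsa1 (0.33, -0.05 to 0.72), Hspa4 (0.33, 0.15 to 0.51), Dnaja2 (0.29, 0.10 to 0.48) and Pfdn2 (0.35, -0.04 to 0.75) were past 1.2-fold. Smaller ratios belonged to Dnaja1 (0.26), Pfdn5 (0.24), Vbp1 (0.23), Ptges3 (0.19), Hspa9 (0.16), St13 (0.13), Hspa4l (0.12) and Dnajc7 (0.10). Nearest to 0 were Chordc1 (0.05), Trap1 (0.04), Pfdn1 (0.04), Dnajb6 (-0.06) and Hsf1, with 29.6 CPM in vehicle and 29.5 in OLE, all 5 with intervals on both sides of 0. The 6 genes under 200 UMIs were Hspe1 (73 and 81 UMIs), Cdc37 (87 and 110), Dnajb1 (31 and 18), Cryab (27 and 36), Bag3 (19 and 18) and Hspb1 (0 and 2). A count of 0 allows Hspb1 a level of up to 0.426 CPM in the vehicle library.

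Between the neuron types, 24 of the 31 genes tested in both had the larger ratio in GABAergic-like nuclei. Intervals lay apart for 3 of them, Hsp90ab1, Hspa8 and Cct2, always with the larger ratio in GABAergic-like nuclei. For the remaining 28 the intervals overlapped, which leaves differences of the size of those intervals possible. These comparisons are not independent, since the same pair of libraries supplied all the neurons. The matching shares over all genes were not counted. All genes under 10 kb from start to end had a GABAergic-like median of 0.29, beside a glutamatergic-like 0.21. From 10 to under 20 kb these medians were 0.18 and 0.11, and from 20 to under 40 kb 0.10 and 0.06. At 40 kb or more they were 0.005 and 0.008. The part of this wider offset in the chaperone counts was not tested.

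Glutamatergic-like nuclei formed 13 clusters, some of which shared leading genes (Hs3st4 led clusters 5 and 11), which allowed the ratios to be compared between neuron subtypes. Hspa8 was at least 1.2-fold higher in OLE in each of the 13 clusters, with ratios from 0.66 to 1.196 and a median of 0.79. Of all genes tested, 0.374% did so. In vehicle its level ran from 41.0 to 66.1 CPM over the clusters, and in OLE from 67.0 to 120, so that the lowest OLE cluster exceeded the highest vehicle cluster. Ratios above 0 in each cluster were found for 5 genes, namely Hspa8, Hsp90ab1 (0.09 to 1.03), Hsp90aa1 (0.19 to 0.62), Ahsa1 (0.25 to 1.00) and Dnaja2 (0.05 to 0.51), as did 2.81% of all genes tested. The clusters share their 2 libraries and are not replicates of the treatment.

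Several genes with small ratios in the sum also varied around 0 between clusters. Dnajc7 was above 0 in 7 clusters and below in 6, with a range from -0.18 to 0.20, and Hspa4l above in 8 and below in 5 (-0.31 to 0.22). Chordc1 ranged from -0.35 to 0.29 and Pfdn1 from -0.29 to 0.39. Cct2 was above 0 in 10 clusters (-0.33 to 1.13) and Fkbp4 in 12 (-0.20 to 1.40). Levels of Hspa4l differed between clusters more than between libraries, with 58.2 to 153 CPM over the vehicle clusters and 56.5 to 150.5 over those of OLE. Among the 13 clusters Hsp90ab1 was highest in cluster 18, led by Vwc2l, in both libraries, at 101 CPM in vehicle and 150.5 in OLE.

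**Figure D3:**
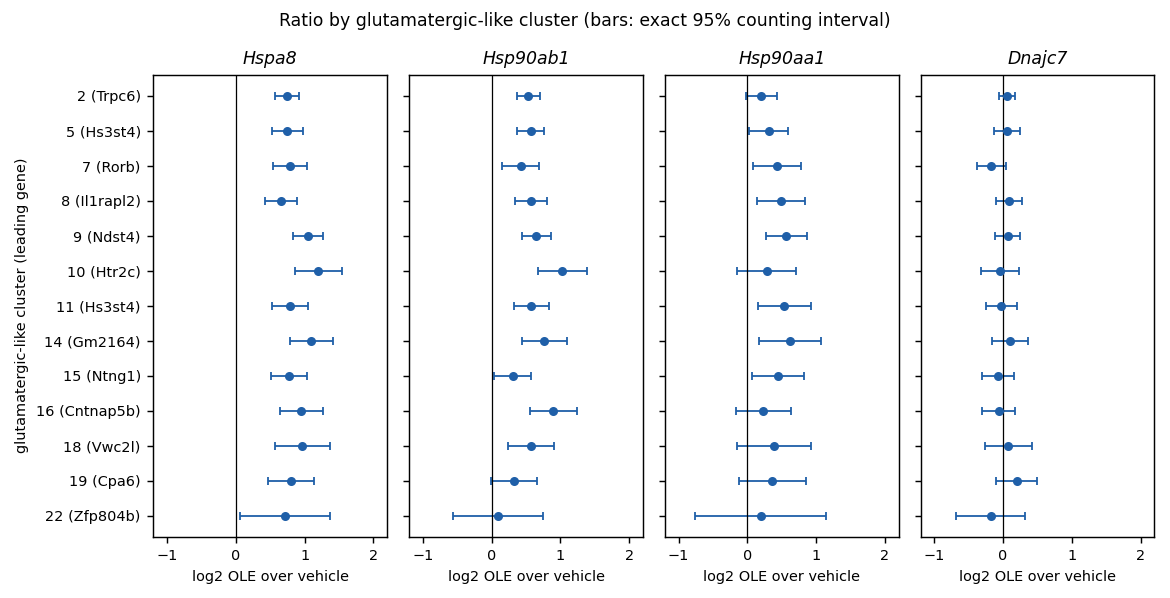
Each row is 1 of the 13 glutamatergic-like clusters, with its leading gene in brackets, and each panel gives the log2 ratio of OLE over vehicle for 1 gene; bars are exact 95% counting intervals. Hspa8 lies between 0.66 and 1.196 in all 13 clusters, Hsp90ab1 and Hsp90aa1 are above 0 in all 13, and Dnajc7 scatters around 0.

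In oligodendrocyte-like nuclei the HSP90 and HSP70 genes were again higher in OLE, while several others could not be counted well. Of the 37 genes 12 reached 200 UMIs, with 6 higher and 0 lower, against 11% and 7.8% of all 3538 genes. Their median ratio was 0.25, and that of all genes -0.01. Hsp90ab1 went from 115 to 190 CPM (0.73, 0.49 to 0.97), Hspa8 from 144 to 209 (0.54, 0.32 to 0.76) and Hsp90aa1 from 78.8 to 108 (0.46, 0.15 to 0.76). Cryab, an abundant small heat shock protein of myelinating cells, had 78.8 and 100.3 CPM (0.35, 0.04 to 0.66). Its ratio was 0.83 when likely doublets were retained. Past 1.2-fold were also Dnaja2 (0.30, -0.07 to 0.68) and Dnajb6 (0.29, 0.01 to 0.57). The other 6 genes ranged from -0.08 (Hspa4l) to 0.21 (Chordc1), with Hspa4 at 0.18, Ptges3 at 0.15, St13 at -0.03 and Dnajc7 at -0.07. Dnajc7 overlaps the oligodendrocyte gene Cnp on the opposite strand, and whether its value in these nuclei holds any reads from there was not tested.

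Neuronal RNA made up 1.16% of the UMIs of oligodendrocyte-like nuclei in vehicle and 1.03% in OLE. After the nuclei with the larger neuronal share were left out, which left 6 genes with 200 UMIs, the ratio of Hsp90ab1 was 1.01. The HSP90 sum then had 0.84 (0.62 with all nuclei) and all members 0.27 (0.26), while HSP70 with HSP110 had 0.28 (0.33), CCT 0.21 (0.26), the mitochondrial genes 0.22 (0.31) and the cochaperones 0.19 (0.21). The cytosolic housekeeping list was higher in these nuclei too, with 8 of 11 tested genes past 1.2-fold. Of the 11 chaperone genes tested in glutamatergic-like, GABAergic-like and oligodendrocyte-like nuclei, Hsp90aa1, Hsp90ab1 and Hspa8 were higher in all of them. Among the 3257 genes tested in the same 3 cell types this held for 2.76%.

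Microglia-like nuclei showed no gene of the list past 1.2-fold among the 4 with 200 UMIs, against 8.28% higher and 13.6% lower over all 1859 genes tested. Hspa8 had 202 CPM in vehicle and 228 in OLE (0.18, -0.14 to 0.49) and Hsp90ab1 139.5 and 146 (0.06, -0.32 to 0.45). Dnajb6 had 162 and 144 (-0.17, -0.54 to 0.21) and Dnajc7 192 and 171 (-0.17, -0.51 to 0.17). All 37 genes together had 1997 CPM in vehicle and 2090 in OLE, a summed ratio of 0.07 (-0.03 to 0.17). The upper bound of 0.45 for Hsp90ab1 lies under the lower bound of 0.49 in oligodendrocyte-like nuclei and in glutamatergic-like nuclei. For Hspa8 the upper bound of 0.49 lies under the lower bounds of 0.75 for glutamatergic-like nuclei and 0.90 for GABAergic-like ones but above that of 0.32 in oligodendrocyte-like nuclei, so a difference between microglia-like and oligodendrocyte-like nuclei was not detectable at this depth.

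No gene of the list reached 200 UMIs in OPC-like or astrocyte-like nuclei, so only sums are given. Over all 37 genes, OPC-like nuclei had 1194 CPM in vehicle and 1315 in OLE (0.14, 0.0025 to 0.28) and astrocyte-like nuclei 1336 and 1395 (0.06, -0.06 to 0.18). In OPC-like nuclei the HSP90 sum had a ratio of 0.54 (0.12 to 0.97), on 87 and 105 UMIs. In astrocyte-like nuclei it was 0.25 (-0.15 to 0.64), on 96 and 128 UMIs.

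Cluster 0, the unnamed cluster, is shown because it held more nuclei than any named type. In it 35 genes reached 200 UMIs, with 16 higher and 0 lower, against 10.6% and 3.73% of all 9562 genes, and a median of 0.22 beside 0.02. The cytosolic housekeeping list differed more here too, with 17 of 23 tested genes higher and a median of 0.36. The largest ratios were those of Dnajb1, Cryab, Hspe1 and Pfdn1, of which Hspe1 was also among the larger ones in glutamatergic-like nuclei. Dnajb1 had 9.29 CPM in vehicle and 15.0 in OLE (0.69, 0.25 to 1.14), Cryab 23.5 and 36.3 (0.63, 0.35 to 0.91), Hspe1 28.0 and 39.9 (0.51, 0.25 to 0.77) and Pfdn1 31.1 and 43.6 (0.49, 0.25 to 0.74). Hspa8 stood at 373 CPM in vehicle and 459.5 in OLE (0.30, 0.23 to 0.37), far above its level in glutamatergic-like nuclei in either library. HSP90 had a summed ratio of 0.20 (0.11 to 0.28). Also past 1.2-fold were Cct4 (0.48), Ahsa1 (0.47), Dnaja2 (0.45), Pfdn5 (0.43), Hspd1 (0.41), Fkbp4 (0.40), Cct2 (0.38), Dnajb6 (0.32), Hsp90aa1 (0.28), Hsph1 (0.28) and Dnaja1 (0.27). Of the 19 genes within 1.2-fold, those above 0 ran up to 0.24 (Hspa4), Hsp90ab1 stood at 0.17, and the 4 below 0 were Ptges3 (-0.10), Cdc37 (-0.09), Trap1 (-0.05) and Cct3 (-0.01). The depth of these nuclei differed between the libraries by more than that of any named type above, and its part in these ratios was not tested.

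Levels in CPM also differed between cell types within each library. The sum of the 37 genes ran from 1096 CPM in glutamatergic-like to 1997 in microglia-like nuclei in vehicle, and glutamatergic-like nuclei had the lowest sum in OLE as well, at 1273. Such levels depend on what else the nuclei of a type contain, since each is a share of all RNA counted there. Hspb1 had 0 UMIs in GABAergic-like, OPC-like and astrocyte-like nuclei in vehicle and is given no fold over the 7 types. Bag3 ranged over 63.5-fold in vehicle and Cryab over 32.4-fold, while Hspa8 ranged over 3.73-fold and Dnaja2 over 1.45-fold.

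Cryab RNA was concentrated in oligodendrocyte-like nuclei, with 78.8 CPM in vehicle against 2.43 in the glutamatergic-like class and 3.84 in the GABAergic-like class. With all nuclei thinned to 1000 UMIs, 7.01% of oligodendrocyte-like nuclei in vehicle and 9.47% in OLE had a Cryab UMI (unthinned 23.0% and 26.7%, median depths 3480.5 and 3084.5 UMIs), against 0.302% and 0.155% of glutamatergic-like nuclei (unthinned 5.13% and 5.63%). The next level was that of vascular leptomeningeal-like nuclei, with 39.8 and 49.9 CPM. Bag3 was highest in vascular leptomeningeal-like (34.1 in vehicle and 31.3 in OLE) and astrocyte-like nuclei (33.4 and 29.8), whose intervals overlapped. It had 0.538 and 0.354 CPM in glutamatergic-like nuclei, whose intervals lay below those of each glial type. Hspa4l alone had its highest level in neurons in both libraries, at 86.6 in vehicle and 84.6 in OLE in glutamatergic-like nuclei and 84.4 and 91.4 in GABAergic-like nuclei, against 34.1 and 25.6 in vascular leptomeningeal-like nuclei. Its vehicle interval in astrocyte-like nuclei (58.9 to 99.3) overlapped those of both neuron types.

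**Figure D4:**
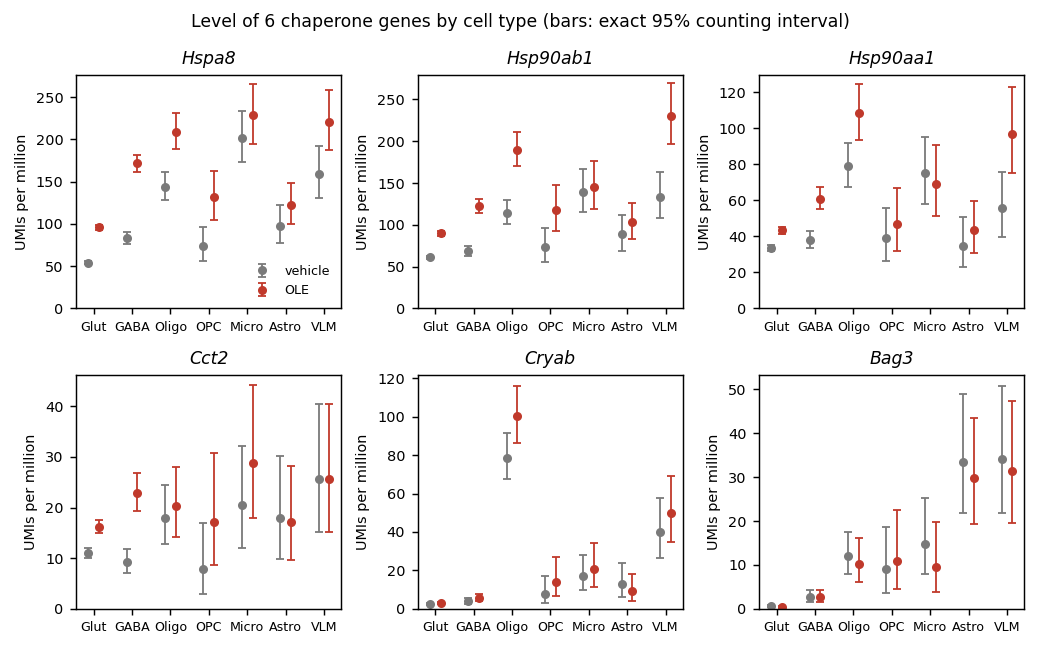
The y axis gives the CPM of 6 genes in vehicle (grey) and OLE (red), 1 library each, in glutamatergic-like (Glut), GABAergic-like (GABA), oligodendrocyte-like (Oligo), OPC-like (OPC), microglia-like (Micro), astrocyte-like (Astro) and vascular leptomeningeal-like (VLM) nuclei; bars are exact 95% Poisson intervals. Hspa8 and Hsp90ab1 stand higher in OLE in neurons and oligodendrocyte-like nuclei, Cryab peaks in oligodendrocyte-like nuclei, and Bag3 is near 0 in neurons in both libraries.

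The ratios of the chaperone genes followed the length of the gene. In glutamatergic-like nuclei the 9 tested genes under 10 kb from start to end (Hsp90ab1, Hspa8, Hspe1, Dnajb1, Tcp1, Cryab, Ahsa1, Fkbp4 and Pfdn5) had a median ratio of 0.40, the 14 genes of 10 to under 20 kb 0.21, the 8 of 20 to under 40 kb 0.07 and the 4 longer ones 0.04. All genes tested had the same trend, with medians of 0.21, 0.11, 0.06 and 0.01 in these classes, and 39.7% of the 2377 genes under 10 kb were past 1.2-fold, against 8.27% of those of 40 kb or more. Across genes, Spearman's rho between ratio and length was -0.74 over the 35 chaperone genes and -0.39 over 12570 genes, which are not independent replicates. Each of the 9 chaperone genes under 10 kb lay above the median of all genes of its class, as did 11 of the 14 in the next class and 4 of the 8 after that. Set against the median of its own length class, the member median was 0.10 and 6 genes were past 1.2-fold. These were Hspa8 at 0.62, Cct2 at 0.44, Hsp90ab1 at 0.35, Hspe1 at 0.34, Hsph1 at 0.31 and Hsp90aa1. The share of all genes past 1.2-fold on this scale was not counted. No longer past 1.2-fold were Fkbp4 (0.24), Dnaja1 (0.23), Pfdn5 (0.19), Ahsa1 (0.19), Dnajb1 (0.18), Cct5 (0.17) and Cct7 (0.15). In GABAergic-like nuclei the same scale, which was chosen after the data had been seen, gave a member median of 0.12, with Cct2 at 1.13 and Hspa8 at 0.76.

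**Figure D5:**
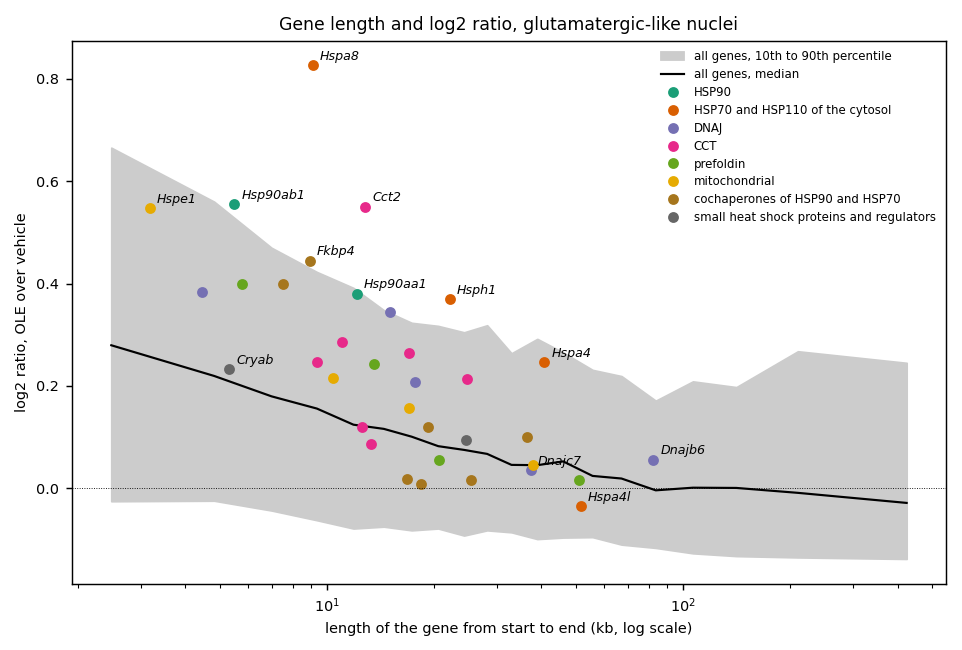
Each point is a chaperone gene with at least 200 UMIs in glutamatergic-like nuclei, at its length from start to end (kb, log scale) and its log2 ratio of OLE over vehicle and coloured by group. The line and grey band give the median and the 10th to 90th percentile of all genes tested, in 20 bins of length. The median falls from 0.28 in the shortest bin to -0.03 in the longest, and Hspa8 (0.83) and Cct2 (0.55) lie well above the band, with Hsph1, Hsp90ab1 and Fkbp4 nearer to its upper edge.

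Heat-inducible members were described beside the others, since HSF1 acts on them. The list held Hsp90aa1, Hspa8, Hsph1, Dnaja1, Dnajb1, Hspd1, Hspe1, Hspb1, Cryab, Bag3, Chordc1, Ahsa1 and Stip1. It thus includes Hspa8, described above as constitutive, which had the largest ratio in glutamatergic-like nuclei. Of the 13 genes on that list, 11 were tested in glutamatergic-like nuclei, with a median of 0.37 and 7 past 1.2-fold, and the other 24 genes had a median of 0.14 with 6 past 1.2-fold. Of all genes tested there, 17.1% were past 1.2-fold, and 39.7% of those under 10 kb. Hspa8, Hspe1, Dnajb1, Cryab and Ahsa1 are under 10 kb, and the part of gene length in this contrast was not tested. In GABAergic-like nuclei the medians were 0.49 (8 genes) and 0.24 (23 genes). Of the heat-inducible genes untested there, all under 200 UMIs, Dnajb1 was below 0 in each of the 2 clusters and Cryab above 0 in each. Hspe1 and Bag3 were each above 0 in 1 cluster and below 0 in 1, and Hspb1 had no ratio in either. Hspa1a, the HSP70 gene with the strongest heat response and no member of the list (named after its values had been seen), had only 46 UMIs in vehicle and 69 in OLE in glutamatergic-like nuclei, or 0.989 and 1.63 CPM. Its close copy Hspa1b had 30 and 36, and reads of the pair can be shared.

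HSF1 binds inverted repeats of a short unit upstream of such genes, and the sequences that carry 3 units in a row were looked up to show where they sit. RefSeq promoter windows of 300 bases (250 before and 50 after the start, GRCm38.p6) were at hand for 28 of the 37 genes, without Hsp90aa1, Hsp90ab1, Hspa8, Hspa9, Cct4, St13, Cryab, Hsf1 and Pfdn1. The motif GAANNTTCNNGAA, read on both strands (TTCNNGAANNTTC on the other), occurred in 5 of the 28, or 17.9%, and in 0.662% of the 27025 genes with a window. A match is a description of letters and not a measured binding site. The 5 stretches of 30 bases are printed 5′ to 3′ on the strand of the gene, with the matched letters, joined where matches overlap, in capitals:
Hspe1, chr1:55088053-55088082, + strand: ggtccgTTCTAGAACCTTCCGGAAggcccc
Hspd1, chr1:55088053-55088082, - strand: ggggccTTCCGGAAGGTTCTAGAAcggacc
Chordc1, chr9:18292260-18292289, + strand: ccgGAACGTTCGGGAAAATTCCTGAAgcag
Dnajb6, chr5:29735844-29735873, + strand: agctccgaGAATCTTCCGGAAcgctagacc
Hsph1, chr5:149636287-149636316, - strand: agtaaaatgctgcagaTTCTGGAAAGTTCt

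Hspd1 and Hspe1 lie head to head on chromosome 1 and share a single stretch, read from opposite strands. Their ratios in glutamatergic-like nuclei were 0.21 (0.07 to 0.36) and 0.55 (0.32 to 0.78), and in cluster 0 they were 0.41 (0.19 to 0.63) and 0.51 (0.25 to 0.77). All 4 intervals lay above 0, those of the 2 genes overlapped, and Hspd1 in glutamatergic-like nuclei was within 1.2-fold. Genes with a match did not otherwise share a ratio. In glutamatergic-like nuclei Hsph1 had 0.37, Dnajb6 0.06 and Chordc1, with 3 overlapping matches across its start, 0.02.

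Further chaperone genes outside the list were counted in the same way. Of 55 such genes (DNAJ, BAG and mitochondrial proteases among them), 54 were in the files and 45 tested in glutamatergic-like nuclei, with 4 higher (17.1% of all genes tested), 0 lower (1.61%) and a median of 0.11. The 4 past 1.2-fold were Bag5 (0.40, 0.08 to 0.72), Grpel1, the nucleotide exchange factor of mitochondrial HSP70 (0.31, 0.02 to 0.61), Dnajc2 (0.27, 0.14 to 0.41) and Nudc (0.27, 0.11 to 0.43). The smallest were those of Pdcl3 (-0.09, -0.33 to 0.16), Hspbp1 (-0.07, -0.20 to 0.07) and Clpx, a mitochondrial unfoldase (-0.06, -0.15 to 0.02). In GABAergic-like nuclei 4 of 32 were higher (Bag6, Nudc, Stub1 and Lonp1, against 18.6% of all genes) and 1, Hspa12a, lower (2.95%), and in oligodendrocyte-like nuclei 0 of 10 in either direction (11% and 7.8%). Microglia-like nuclei had 1 of 5 higher (8.28% of all genes), namely Fkbp5, an HSP90 cochaperone induced by glucocorticoids, with 155 CPM in vehicle and 226 in OLE (0.54, 0.20 to 0.88). In cluster 0, 7 of 42 were higher (10.6%) and 1 lower (3.73%). Nudc in glutamatergic-like nuclei and the GABAergic-like and microglia-like genes were named after their values had been seen.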

How the data were processed

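Nuclei of the entorhinal cortex were profiled with the 10x 3′ v3 chemistry, 1 library for vehicle and 1 for OLE, each from 5 mice. The authors aligned reads to an mm10 reference that includes introns and counted UMIs per gene and nucleus with Cell Ranger (3.0.1 per the labels, 3.0.2 in the matrix headers), and deposited these raw counts unnormalised, with gene and barcode lists. Their Seurat 4.0.4 cell types were not used here, and 0 columns belonged to another sample. The methods state that doublets were removed but name no caller, and the matrices held 6745 and 6173 barcodes. The sources name different sequencers.

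Scrublet (scanpy 1.11.5) marked under 0.5% of nuclei at its automatic threshold (7 and 8), so the 5% with the highest scores were removed (331 and 289, leaving 6414 and 5884). SCTransform (Seurat 5.3.0, sctransform 0.4.2, R 4.3.3; 3000 genes, 30 components, 20 neighbours, resolution 0.4) gave 25 clusters, named from marker lists. Counts were summed per cell type (Python 3.11.15, pandas 2.3.3, scipy 1.17.1). Levels carry exact Poisson and ratios exact binomial (Clopper-Pearson) 95% intervals, for counting error only, and a count of 0 allows up to 3 counts. Only the ratio and its interval were tested on simulated counts. Members were named in each cell type where they had 200 UMIs, and of other chaperone genes the 3 highest and 3 lowest ratios in glutamatergic-like nuclei. Members and lists were chosen with earlier results of these data known. Alternatives changed the minimum, fold, centring, weighting, thinning, doublets and cell type rule.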

Additional observations from a re-analysis of the deposited data

How the results depend on the processing

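No member past 1.2-fold changed sign under any alternative run. Shares of all genes past the fold were counted in the main setting only. The counts of genes higher or lower under the alternatives in this section therefore have no background beside them. Members and group sums that did so were within 1.2-fold, and Hspa4l in glutamatergic-like nuclei was among them. Of 606 alternatives for named members 569 kept the value within its counting interval and 37 moved it, and of 387 for group sums 40 moved it; the cause was not tested unless the alternative's own construction gives it. In glutamatergic-like nuclei the median of the members was 0.15 when centred on all genes, 0.17 when thinned to 1000 UMIs, 0.10 within length classes (chosen after seeing the data) and 0.32 when unnamed clusters with raised glutamatergic markers were counted, and the genes higher were 3 when thinned, where fewer reach 200 UMIs, 6 within length classes, 20 with those clusters and 1 at 1.5-fold. Centring on all genes gave group sums of 0.43 for HSP90, 0.27 for HSP70 and HSP110, 0.053 for DNAJ, 0.17 for CCT, 0.043 for the cochaperones and 0.15 for all members, and 0.30 for all members in GABAergic-like nuclei. Thinning gave 0.30 for HSP90, 0.059 for prefoldin, 0.26 for the mitochondrial genes and 0.19 for all members. Counting the unnamed clusters gave 0.43 for HSP70 and HSP110, 0.19 for DNAJ, 0.34 for CCT, 0.27 for prefoldin, 0.31 for the mitochondrial genes, 0.16 for the cochaperones, 0.25 for small heat shock proteins and 0.31 for all members. With doublets retained, HSP70 and HSP110 had 0.38, all members 0.24, and the small heat shock proteins of oligodendrocyte-like nuclei 0.54.

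In GABAergic-like nuclei the median was 0.14 at a minimum of 500 UMIs, 0.13 with equal weights and 0.12 within length classes, and the genes higher were 5, 11 and 10, or 6 at 1.5-fold. Equal weights gave 0.56 for HSP90, 0.48 for HSP70 and HSP110 and 0.26 for all members, and thinning 0.45 for HSP90, -0.052 for DNAJ, -0.16 for prefoldin, 0.36 for the mitochondrial genes and 0.29 for all members. In oligodendrocyte-like nuclei the median was 0.54 at 500 UMIs and 0.52 without nuclei high in neuronal RNA, where HSP90 had 0.84; the genes higher were 2 at 500 UMIs, 14 with no minimum and 1 at 1.5-fold, and those lower 1 at 100 UMIs and 2 with no minimum. Thinned, HSP70 and HSP110 had 0.53 there. In microglia-like nuclei the median was 0.17 with no minimum, with 15 genes higher and 4 lower, and 1 was higher at 100 UMIs or with doublets retained. With no minimum 1 gene was lower in each neuron type. Without nuclei high in neuronal RNA microglia-like prefoldin had -0.58 and all members -0.060. Thinned sums of small types rest on few UMIs: DNAJ -0.77 and small heat shock proteins 1.85 (OPC-like), mitochondrial 0.60 (microglia-like), prefoldin -0.63, mitochondrial 1.00 and cochaperones -0.21 (astrocyte-like).

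No paired analysis was possible because each condition has 1 library. For the same reason differences between mice, preparations and treatments cannot be told apart.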

Other observations

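Hspb1, a small heat shock protein, had its highest levels in vascular nuclei. Vascular leptomeningeal-like nuclei had 14 UMIs in vehicle and 48 in OLE, or 19.9 and 68.4 CPM, and endothelial-like nuclei (14 and 35 nuclei) had 21 and 47 UMIs, or 155 and 273 CPM. OPC-like and astrocyte-like nuclei had 0 UMIs in both libraries, which allows levels of up to 3.90 and 4.69 CPM in OPC-like and 3.86 and 3.43 in astrocyte-like nuclei. In vascular leptomeningeal-like nuclei the cytosolic housekeeping list had a summed ratio of 0.94, and its part in the Hspb1 difference was not tested.

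The unnamed cluster 3 had 4 members with at least 200 UMIs, Hspa8 at 0.65 (0.46 to 0.83), Hsp90aa1 at 0.58 (0.21 to 0.95), Hsp90ab1 at 0.52 (0.30 to 0.74) and Pfdn5 at 0.46 (0.11 to 0.81). Over all 1421 genes tested there, 22.0% were at least 1.2-fold higher in OLE and 21.3% lower, and of the cytosolic housekeeping list 13 of 19 were higher.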
